A study of Oryctolagus cuniculus with 3 samples.

Results

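The genes described here are 5 genes of extracellular matrix remodelling in the rabbit abdominal aorta: the proteases MMP16 and ADAMTS9, the protease inhibitor TIMP1, the microfibril gene MFAP4 and the cross-linking enzyme LOXL2. They are 5 of the 3706 genes that the study listed by cluster, and each was measured by 1 of the 43603 gene probes on the array. Expression was measured on 3 single-colour Agilent arrays, 1 for each group, and each array held RNA from the abdominal aorta of 1 adult male New Zealand white rabbit. The control rabbit (AS 0 day) was uninjured and had normal chow. Its sample title also reads PBS, which is not explained. The model rabbit (AS 30 day) had balloon injury of the abdominal aorta and a high-cholesterol diet for 4 weeks. The recovery rabbit (AS 60 day) had the same injury and diet followed by 4 weeks without added cholesterol, a period called normal diet in the sample labels and caloric restriction in the study's methods. Injury and diet were given together and the control was not sham-operated, so their parts in any difference from control cannot be told apart. Model and recovery differ in time since injury as well as in diet, and these cannot be told apart either. The rabbit for each array had been picked from its group by pathology and ultrasound. Since each group is a single array, no spread between rabbits is known and neither an error nor a test can be given. A difference below is one between 2 aortas, not between conditions.

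The wall of the aorta owes its recoil to elastic fibres, in which elastin is laid down on a scaffold of microfibrils, and its strength to cross-linked collagen. Metalloproteinases of the MMP and ADAMTS families cut these fibres and the proteoglycans between them, and TIMP proteins bind the active site of such enzymes and block it. Lysyl oxidases join neighbouring collagen or elastin chains. In atherosclerosis and after balloon injury this matrix is rebuilt as smooth muscle cells move into the intima.

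Probes carry no gene names in the deposited table. Each gene was therefore given the probe whose log2 ratios of model over control and of recovery over control both lay within 0.006 of the gene's row in the study's cluster sheets, and for each of the 5 genes exactly 1 probe did. The ratios to control thus chose the probes and are described, not tested, and the study had listed only genes that changed at least 2-fold between some pair of arrays. What the deposited values add is the signal level of each gene in each array and its place among all other probes. No probe or protein sequences were analysed here. In RefSeq's rabbit assembly mOryCun1.1 each of the 5 symbols belongs to 1 protein-coding gene, and the 5 genes lie on 5 different chromosomes.

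Signals are log2 values that the authors quantile-normalized. A floor was placed at 4.37, the 40th percentile. Lower values were raised to it, and a ratio that includes such a value is a bound. All 15 values of the 5 genes lay above it. In 28959 probes 1 or more arrays exceeded the floor, and of these 11.9% were at least 2-fold higher and 13.1% at least 2-fold lower in model than in control. From model to recovery 7.04% were at least 2-fold higher and 8.16% at least 2-fold lower. Between recovery and control the shares were 16.0% higher and 16.0% lower. Of the 23 control rows above the floor in every array, 8 were E1A spike-in rows, and what the others detect was not established. The 23 rows ranged from -0.96 to -0.07 in log2 model over control and from 0.12 to 0.97 in log2 recovery over model. These ranges are the only measure here of how far a signal could differ between arrays for technical reasons. They serve as one only as far as such rows do not report aortic RNA.

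The 5 genes followed 4 courses. MMP16 was high in the model aorta and partly lower again in recovery. ADAMTS9 was low in the model aorta and back at its control level in recovery. TIMP1 and MFAP4 were higher in model and higher still in recovery. LOXL2 was low in model and stayed there. In progression 3 of the 5 were at least 2-fold higher, against 11.9% of all probes, and 2 were at least 2-fold lower, against 13.1%. In regression 3 were at least 2-fold higher, against 7.04%, and 1 was at least 2-fold lower, against 8.16%. Because the genes were listed by the study as changed on these arrays, nothing is read from these shares.

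**Figure D1:**
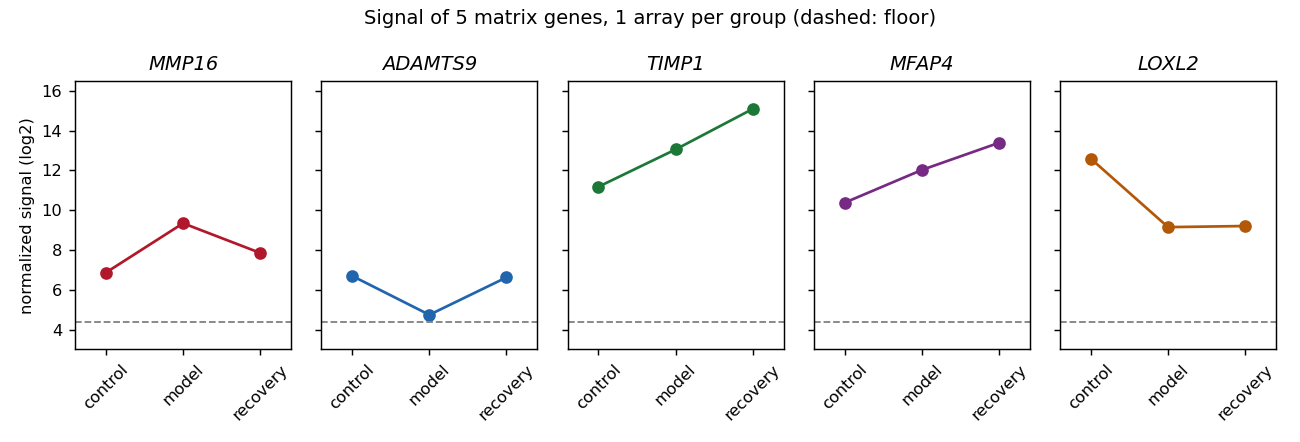
Normalized signal (log2, y axis) of MMP16, ADAMTS9, TIMP1, MFAP4 and LOXL2 in the control, model and recovery arrays (x axis), 1 point per array with no error because each group has 1 array. The dashed line is the floor of 4.37. ADAMTS9 in the model array, at 4.74, is the point nearest to it.

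MMP16 encodes a membrane-type matrix metalloproteinase, an enzyme anchored at the cell surface that can activate the secreted gelatinase MMP2. Its probe, A_04_P090044, read 6.87 in the control array on the log2 signal scale, 9.35 in model and 7.85 in recovery. The model aorta was the highest and the control aorta the lowest of the 3. The log2 ratio of model over control was 2.48, a 5.58-fold difference, and 2.50% of the probes tested had a larger rise. From model to recovery the signal fell by 1.49 on the log2 scale, or 2.82-fold, so that 60.2% of the rise was reversed. Recovery still stood 0.99 above control, or 1.98-fold. Both differences in MMP16 were wider than the ranges of the control rows. The study listed genes for changes of at least 2-fold on these arrays, so this is a description and no support. Among the 3451 probes at least 2-fold higher in model, 814 (23.6%) had at least 50% of the rise reversed in recovery, as MMP16 did.

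The MMP16 probe is the last of a run of 3 consecutive probe numbers, whose other 2 members carry no name in any table used here. The probe A_04_P090042 had log2 ratios to control of 2.49 in model and 1.12 in recovery, and the probe A_04_P090043 had 2.39 and 0.94. All 3 thus showed the same rise and partial fall, and their mean was 2.45 in model and 1.02 in recovery. Across the array, 12690 pairs of probes with consecutive numbers and signals above the floor had a Pearson's r of 0.886 for log2 model over control, and 8721 pairs whose numbers differed by 5 had an r of 0.029. Such correlations are across probes, which share the 3 libraries and are not independent replicates. For consecutive pairs the median difference between the log2 ratios was 0.10.

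**Figure D2:**
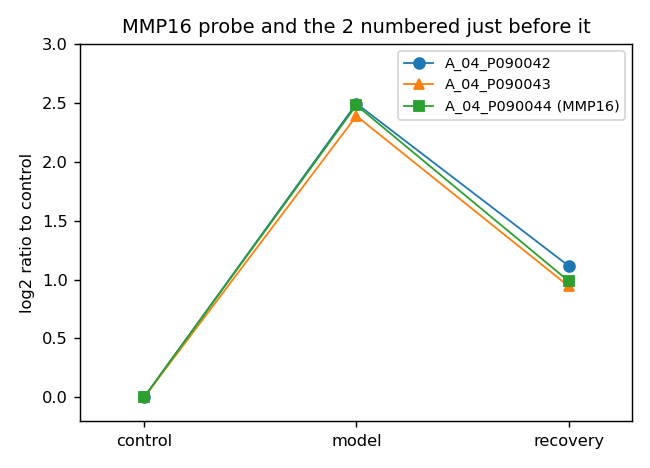
Log2 ratio to control (y axis) in the control, model and recovery arrays (x axis) for the MMP16 probe A_04_P090044 and the unnamed probes A_04_P090042 and A_04_P090043, 1 array per group. The 3 lines lie between 2.39 and 2.49 in model and between 0.94 and 1.12 in recovery.

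These runs also bear on how the 5 probes were found. When each run was represented by the median of its log2 ratios, rows of the cluster sheets matched exactly 1 run of 3 probes in 260 cases, whereas the mean of the run gave 17. By this measure, chosen after the data had been seen, each of the 5 genes matched 1 run only, the one that holds its probe. For ADAMTS9, TIMP1, MFAP4 and LOXL2 that run is a single probe, so no second probe stands beside them. For MMP16 the run medians of the ratios to control, 2.48 in model and 0.99 in recovery, are the values of its own probe. The match of each gene to its own run thus followed from the match to its probe and adds no support. There are 16722 runs against 43603 single probes. The number of matches expected by chance at each gene's ratios was 0.0108 for MMP16, 0.018 for ADAMTS9, 0.0036 for TIMP1, 0.0288 for MFAP4 and 0.0324 for LOXL2 over runs. Over single probes it was 0.0216, 0.054, 0.0072, 0.0612 and 0.0504 in the same order. The members lay 0.0026 to 0.0048 from their rows. The next nearest single probes lay from 0.015 for ADAMTS9 to 0.094 for TIMP1, and the one next to ADAMTS9 was below the floor in all 3 arrays, with a control value of 4.00.

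ADAMTS9 encodes a secreted protease that cuts the proteoglycans versican and aggrecan. Its probe, A_04_P097822, read 6.70 in the control array on the log2 signal scale, 4.74 in model and 6.62 in recovery. The model aorta alone was low, and control and recovery differed by 0.07, or 1.05-fold. The log2 ratio of model over control was -1.96, a 3.88-fold difference, and 5.15% of the probes tested fell further. From model to recovery the ratio was 1.88, or 3.69-fold higher, and 1.65% of the probes rose further. The reversed share of the fall was 96.3%. Centred on the control rows, both steps of ADAMTS9 were smaller, at -1.50 and 1.34. Of the 3785 probes at least 2-fold lower in model, 496 (13.1%) had at least 50% of the fall reversed. The model value lay only 0.37 above the floor, and raising the floor to 6.58, the 60th percentile, removed all but 0.12 of the log2 difference from control, so its size rests on signals of low brightness.

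TIMP1 encodes a secreted inhibitor of metalloproteinases that also acts as a growth factor. Its probe, A_04_P001801, read 11.18 in the control array on the log2 signal scale, 13.06 in model and 15.10 in recovery. Each aorta was brighter than the one before it in the course of the experiment. The log2 ratio was 1.88 for model over control, or 3.67-fold, and 2.04 for recovery over model, or 4.11-fold. After each array was centred on the control rows the steps were 2.33 and 1.5. Recovery stood 3.91 above control, or 15.1-fold, and 1.06% of the probes tested were further above control than TIMP1. Only 297 probes, or 8.61% of those at least 2-fold higher in model, had a further 2-fold rise or more in recovery. TIMP1 lay far from the floor in every array, and its differences exceeded the ranges of the control rows. As for MMP16, the listing for a 2-fold change makes this a description and no support.

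MFAP4 encodes a fibrinogen-like glycoprotein of elastic microfibrils that binds elastin and fibrillin. Its probe, A_04_P054612, read 10.38 in the control array on the log2 signal scale, 12.03 in model and 13.39 in recovery. As for TIMP1, control was the lowest and recovery the highest. The log2 ratio was 1.65 for model over control, or 3.13-fold, and 1.37 for recovery over model, or 2.58-fold. Recovery stood 3.01 above control, or 8.06-fold, with 2.18% of the probes tested further above it. MFAP4 is another of the 297 probes that were higher at both steps. Its second step was the smallest of the 4 large ones in regression, and after each array was centred on the control rows it was 0.83, below 2-fold.

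LOXL2 encodes a secreted lysyl oxidase that cross-links collagen IV and other matrix collagens. Its probe, A_04_P098652, read 12.59 in the control array on the log2 signal scale, 9.15 in model and 9.21 in recovery. The control aorta alone was high. The log2 ratio of model over control was -3.44, a 10.8-fold difference and the largest in progression among the 5 genes, and 1.37% of the probes tested fell further. Recovery over model was 0.06, or 1.04-fold, smaller than the lowest value among the control rows, and its sign turned to -0.48 when arrays were centred on the control rows. Recovery remained 3.38 below control on the log2 scale, or 10.4-fold. Of the 2745 probes at least 2-fold lower in model and above the floor in both model and recovery, 320 (11.7%) lay within 0.1 of the model value in recovery, as LOXL2 did.

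**Figure D3:**
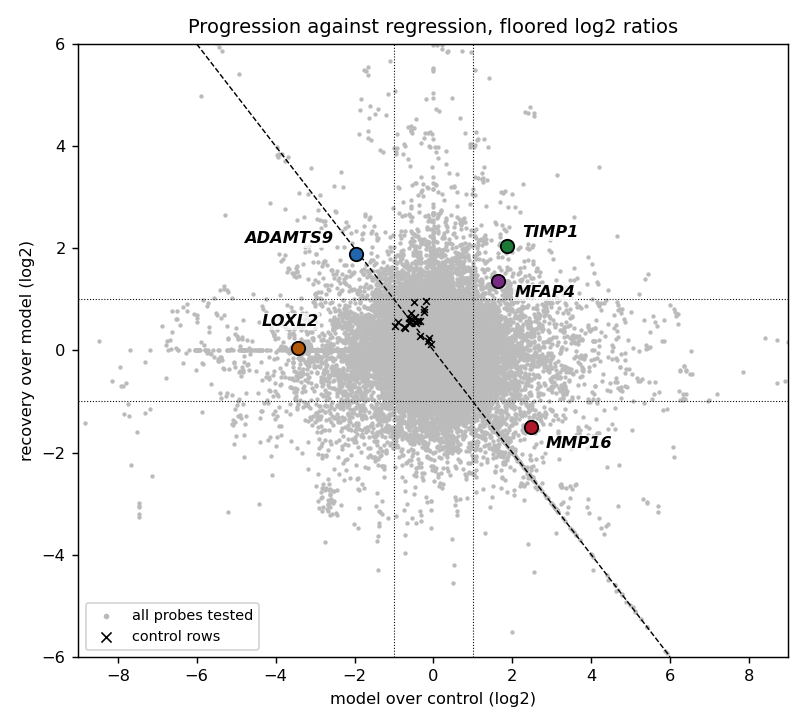
Log2 model over control (x axis) against log2 recovery over model (y axis) after flooring, for the 28959 probes tested (grey), the 23 control rows (crosses) and the 5 genes (coloured, named), with dotted lines at 2-fold and a dashed line where recovery equals control. ADAMTS9 lies on the dashed line, TIMP1 and MFAP4 lie to the upper right, MMP16 to the lower right, and LOXL2 at a y value of 0.06. A few probes outside the plotted range are not shown.

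The genes nearest to each of the 5 in both ratios to control were sought among 442 other named genes whose assigned probe exceeded the floor somewhere. The distance is Euclidean, on the log2 scale without a floor, over 3 arrays. Nearest to TIMP1 was FKBP5, an immunophilin that binds the glucocorticoid receptor complex, at a distance of 0.10, whose signals were 5.13, 7.00 and 9.15 in the order control, model, recovery. The hyaluronan-binding protein gene ITIH2 and the cohesin gene REC8 followed at 0.23 and 0.25. Nearest to MFAP4 was the tetraspanin gene TSPAN2 at 0.08, with 4.94, 6.52 and 7.90, before the calcium pump gene ATP2A3 at 0.13 and PHLDA1 at 0.22. Nearest to LOXL2 were the proprotein convertase gene PCSK6 at 0.09 and the serpin gene SERPINF1, which encodes a secreted anti-angiogenic protein, at 0.10. SERPINF1 read 11.51, 7.98 and 8.07 in the same order. Nearest to ADAMTS9 were CDKN2D, an inhibitor of cell cycle kinases, at 0.19, the proteoglycan gene SRGN at 0.21 and GPRC5A at 0.23. SRGN, which encodes serglycin of secretory granules, had 11.70, 9.93 and 11.53. For MMP16 the nearest were MIP at 0.13, UPB1 at 0.21 and CGREF1 at 0.22, with control signals of 4.54, 4.69 and 4.48, all near the floor. ITIH2 and PHLDA1 were below the floor in control, PHLDA1 also in model, and CDKN2D, GPRC5A and PCSK6 were below it in model, PCSK6 also in recovery. With 3 arrays such likeness describes 2 ratios only.

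To set the 5 genes beside others of their kind, 96 genes were listed in 6 groups by role, of which 34 stand in the cluster sheets. With single probes 10 were listed, the 5 genes, which were kept whatever their expected chance matches, and, under a limit of 0.05 such matches, MMP12, ADAMTS16, ADAMTSL4, TIMP4 and HAPLN1. In progression 6 of these 10 were at least 2-fold higher and 3 lower, against 11.9% and 13.1% of all probes, with a median log2 ratio of 1.76 against 0.02 over all probes tested. Through the medians of runs 17 were assigned, 10 of them higher and 5 lower in model. Among the 12 of these that are not the 5 genes, 7 were higher and 3 lower in model, 0 rose at least 2-fold from model to recovery, against 7.04% of all probes, and 3 fell, against 8.16%. With so few genes nothing is read from these counts. The study had chosen all listed genes as changed on these arrays, and most listed genes were not assigned, so the counts describe assigned genes only.

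Among the metalloproteinases, MMP16 and MMP12 were higher in model and lower again in recovery. MMP12, the macrophage elastase, read 7.27 in model and lay under the floor in the other 2 arrays, so that model was at least 7.43-fold above either. By runs, MMP11, known as stromelysin 3, followed the same course, with log2 signals of 5.41, 7.16 and 5.87 in control, model and recovery. MMP9, a gelatinase of leukocytes, had a log2 model over control of -0.54 and fell by 1.78 from model to recovery. The log2 ratios of MMP28 to control were -2.28 in model and -2.78 in recovery. From model to recovery 4 of the 5 assigned metalloproteinases were at least 2-fold lower, against 8.16% of all probes, and 0 were higher. Only 5 of 23 listed metalloproteinases were assigned, all from genes the study had chosen as changed on these arrays. Nothing is read from this count. MMP12, MMP11 and MMP16 stood at most 0.99 above control in recovery.

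In the ADAMTS group ADAMTS9 was the only one of 3 assigned genes that fell at least 2-fold and came back. ADAMTS16 was at 5.08 in control and below the floor in model and recovery, so its bound stayed under 2-fold. ADAMTSL4, an ADAMTS-like protein without protease activity that binds fibrillin microfibrils, was at 5.06, 7.58 and 7.13 and so stayed 2.06 above control in recovery. Versican is a proteoglycan substrate of ADAMTS9. By a run of 6 probes the log2 ratios of VCAN to control were 2.03 in model and 1.52 in recovery, so that it was higher in the model aorta, where ADAMTS9 was lower. The sixth probe of that run was the one assigned to HAPLN1, a link protein that ties versican to hyaluronan, so these assignments are uncertain. HAPLN1 was below the floor in control, at 6.28 in model and at 4.73 in recovery, at least 3.75-fold higher in model.

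The inhibitors went apart. TIMP4 read 9.79, 6.31 and 5.43 in control, model and recovery, 11.2-fold lower in model and 20.6-fold lower in recovery than in control. TIMP1 over the same arrays went from 11.18 to 15.10. RECK, a membrane-anchored inhibitor of metalloproteinases, lay under the floor in control, which makes its model value at least 3.19-fold and its recovery value at least 3.59-fold higher. Of these inhibitors TIMP1 alone rose 2-fold or more from model to recovery.

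The microfibril genes were likewise divided. LTBP1, which holds latent TGF-β in the matrix, had log2 ratios to control of 3.39 in model and 2.99 in recovery, as the median of 2 probes. MFAP3L, a membrane protein named for its likeness to a microfibril protein, had 2.26 and 3.11. MFAP5, a microfibril-associated glycoprotein also used as a marker of adventitial fibroblasts, had signals of 11.02, 7.90 and 8.00 and so stood at -3.12 and -3.02. MFAP5 and LOXL2 were thus low at both times, within 0.10 and 0.06 of their own model values in recovery, while MFAP4 was high at both. LOXL2 was the only assigned gene of the 12 listed for cross-linking and hydroxylation.

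**Figure D4:**
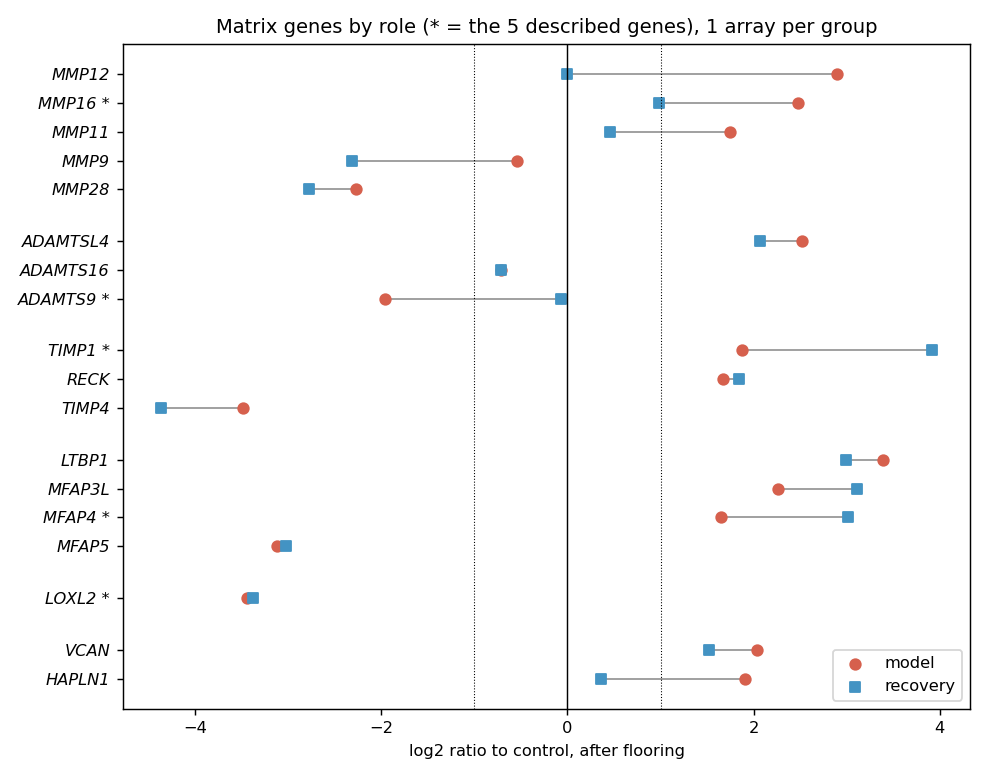
Log2 ratio to control after flooring (x axis) in model (circles) and recovery (squares) for assigned matrix genes grouped by role (y axis), 1 array per group, with dotted lines at 2-fold. Genes other than HAPLN1 are placed by runs of probes, and MMP12, RECK, HAPLN1 and ADAMTS16 by bounds. TIMP1 and MFAP4 have the recovery square well to the right of the model circle, and MMP16, MMP11 and MMP12 have it to the left.

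Markers of cell types also differed between the 3 arrays. Only markers that the study had listed as changed on these arrays could be assigned, so nothing is read from their counts. Of all probes tested, 11.9% were at least 2-fold higher and 13.1% lower in model than in control. In recovery 16.0% were higher and 16.0% lower than in control. By single probes, all 6 assigned contractile smooth muscle genes of 13 listed were at least 2-fold higher in model and in recovery, with a median log2 model over control of 4.06 and recovery over model of 0.48. ACTA2, smooth muscle actin, and MYH11, its myosin heavy chain, were above the floor in every array, at 12.45 and 10.71 in control. The linear signals of the 6 genes summed to 21320 in control, 203952 in model and 286310 in recovery. All 3 assigned adipocyte genes of 12 were lower in model, with a median of -6.48, and ADIPOQ and PPARG were below the floor in model and recovery. The linear signals of these 3 genes summed to 138336 in control, 4487 in model and 3369 in recovery. In the control array they exceeded the sum of the 6 smooth muscle genes only through FABP4, at 17.04 on the log2 scale. ADIPOQ and PPARG both read 10.85 there. Signals of different probes are not on a common scale, so these sums do not compare amounts of RNA between cell types. All 4 assigned lymphocyte genes of 12 were lower in model and below the floor there and in recovery. Both assigned endothelial genes of 12 were lower in model, with log2 ratios of -2.53 for PECAM1 and -3.76 for CLDN5, and log2 recovery over model of 0.63 for PECAM1 and 2.77 for CLDN5. By runs NOS3, the endothelial nitric oxide synthase, was also assigned, with -2.47 in model over control and -0.28 in recovery over model. Of 11 fibroblast genes 2 were assigned by single probes, COL1A1 and DPT, at -0.58 and -4.03 in model and -2.82 and -4.83 in recovery relative to control. Neither they nor the adipocyte gene FABP4 were assigned by runs, where MFAP5 was the only fibroblast gene. Of 14 macrophage genes 1 was assigned by a single probe, CX3CR1, which was above the floor in model only. By runs ACP5, an acid phosphatase, was assigned too, and it was highest in control, at 7.47, with 6.52 in model and 4.75 in recovery. The course of TIMP1 and MFAP4 from model to recovery, at 2.04 and 1.37, was steeper than that of any of the 6 smooth muscle genes, which lay between -0.44 and 0.88. The part of these cell types in the values of the 5 genes was not tested. In whole aorta, fewer cells of a type and less RNA per cell cannot be told apart.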

How the data were processed

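The authors scanned Agilent rabbit one-colour arrays, read the images with Feature Extraction, for which the submitters' processing notes give version 10.7, and applied quantile normalization in GeneSpring. The deposited values are log2 signals of 43603 gene probes and 58 control rows. Sorted columns differed by at most 0.016, so no further scaling was applied. How background and replicate spots were handled was not stated. The study's present and absent calls were not used.

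The floor was the 40th percentile because the table has 1 negative control row, fewer than the 20 needed to set it from those rows. Other list genes were assigned by the same match, but only with under 0.05 chance matches expected from the density of probes within 0.1. ADAMTS9, MFAP4 and LOXL2 exceed that limit over single probes and were kept as members. This named 585 genes, with 12.5 false ones expected. The match to runs named 1098, with 22.5 expected. Members, lists and tests were chosen with earlier results of these data known. Named genes are the 5 genes, the 3 nearest to each (1 is not reported here), and assigned list members, and the genes added through runs were chosen after their values were seen. Counting and matching were tested on simulated data. The number of arrays limits the precision. Python 3.11.15, numpy 2.4.6 and pandas 2.3.3 were used.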

Additional observations from a re-analysis of the deposited data

How the results depend on the processing

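Of 78 log2 ratios of the 5 genes under other floors, scalings or the MMP16 run mean, 76 stayed within 1.5-fold of the values given. The exceptions were ADAMTS9 with the floor at the 60th percentile, where model over control became -0.12 and the log2 ratio of recovery to model 0.043. Most of this was fixed in advance, so the count is no test of robustness. All 15 values lay above the main floor, so a lower floor or none could not change them. The floor at the 60th percentile, 6.58, lay above the model value of ADAMTS9 alone. The centring shifts were too small to move a ratio by 1.5-fold. Centring on the control rows subtracted -0.45 from the model array and so raised it relative to control. Probes at least 2-fold higher and lower in model became 7029 and 2477 in place of 3451 and 3785. Those higher and lower in recovery than in model became 854 and 6112 in place of 2040 and 2362. Without a floor the counts higher and lower were 5814 and 6162 in progression, 4403 and 4701 in regression, and 7914 and 7405 between recovery and control. With the floor at the 60th percentile they were 2115 and 2413, 1254 and 1270, and 3040 and 2995, and with the 20th percentile 3323 and 3780 for recovery over model. At 1.5-fold they were 6617 and 6160, 4715 and 4961, and 7888 and 7152, and at 4-fold 1131 and 1438, 411 and 441, and 1532 and 1810. With a tolerance of 0.003 only LOXL2, 1 of the 5 genes, had a matching probe. With no limit on chance matches 22 matrix genes were assigned, 11 higher and 6 lower in model, and by runs, added after the data were seen, 17, 10 and 5. The probe annotation alternatives were not run because no such table was used here. No paired analysis was possible because each group has 1 array, and no replicate could be left out.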
